A study of Drosophila melanogaster with 20 samples.

Results

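Total RNA from heads of w1118 flies, the wild type of a study of the neuronal RNA-binding proteins FNE and RBP9, was counted per gene in 5 libraries out of 20 in the series. They were chosen by their genotype label alone, and the 15 libraries of mutant genotypes were not used. The wild type was the w1118 stock, which carries a null allele of white, the gene of an eye pigment transporter. Flies were kept at 25 °C with no treatment named, and heads were taken from adults 1 day after eclosion, the emergence of the adult from the pupal case. Each library was made from 725 ng of RNA of pooled heads, with equal numbers of males and females per the study's methods, so a level is an average over all head tissues and both sexes. The methods call the 5 replicates independent. With 1 group there was no comparison to test, so levels, orders and spreads are described and no p-value is given. A pattern that holds within each of 5 libraries could not reach an exact two-sided p below 0.0625.

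A fly head holds the brain, the paired compound eyes with their photoreceptors, lens and pigment cells, the antennae and mouthparts with their sensory neurons, muscle, trachea, blood cells and a layer of fat body, the tissue that stores lipid and glycogen and secretes blood proteins. Phototransduction begins when light changes a rhodopsin, which acts through a G protein and the phospholipase NORPA to open TRP channels. In young adults the cuticle is still being hardened and darkened, with dopamine derivatives as cross-linkers.

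The libraries held 15923472 to 21064462 counts. Of 17558 gene IDs, 10851 had more than 3 counts in every library (called detected here), 12463 had more than 3 in at least 1 library, and 2458 were at 0 in all 5. The tissue label was read against markers. The neuronal genes elav, nSyb, Syt1 and brp stood at 171 ± 5.13, 699 ± 23.97, 869.5 ± 30.2 and 429.9 ± 23.6 CPM (mean ± SD, n = 5; CPM is the number of reads per 1000000 of the TMM-scaled library). The photoreceptor genes ninaE and trp stood at 8882 ± 696 and 2563 ± 121 CPM. The white gene lay between 0 and 0.431 CPM, where 3 counts, the floor used here, are 0.142 to 0.188 per 1000000 reads of the library. Eggshell and sperm genes were near 0: Cp36, an eggshell gene, reached at most 0.183 CPM, and Mst87F, a sperm tail gene, at most 0.442 CPM.

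The counts were spread over many genes. The 10 most abundant genes took 8.05% of the counts and the 100 most abundant 25.7%, while 565 genes together took 50% (536 to 586 within single libraries) and 3737 took 90%. CPM counts reads, so a long gene gains with its length: the median exon length was 3058 bases for the 500 genes with the highest CPM, against 1980 for detected genes. Levels of different genes were therefore compared as TPM, counts per kilobase of annotated exon scaled to the same total in each library. Where genes are listed by CPM, the order is that of their reads and not of their levels. By TPM the 500 highest genes had a median exon length of 1205.5 bases, and 280 of them were also among the 500 highest by CPM. The 9859 detected protein-coding genes had a median of 25.5 TPM, with quartiles at 9.38 and 58.0 TPM, and 142 genes of all kinds exceeded 1000 TPM.

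Nuclear protein-coding genes took 88.4% ± 0.440 (SD, n = 5) of the counts. The mitochondrial genome took 4.72% ± 0.362 from 37 genes. Nuclear noncoding RNAs took 2.15% ± 0.0646, small nuclear RNAs 0.687% ± 0.0408 and small nucleolar RNAs 0.181% ± 0.0227. A further 3.71% ± 0.0722 belonged to 306 IDs that the annotation used here did not pair with a symbol, among them FBgn0085364, which ranked 8 by CPM at 5359.7 ± 316. The libraries had been depleted of ribosomal RNA, and the genes of nuclear ribosomal RNA held 0.000365% of the counts. How reads with several matches were counted was not stated, and copies of ribosomal RNA share sequence, so that value does not measure the depletion.

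The small chromosome 4 stood apart from the other chromosomes. Of its 79 protein-coding genes 78 were detected (98.7%), against 67.5 to 75.4% on the X chromosome and on the arms 2L, 2R, 3L and 3R. Its detected coding genes had a median of 87.0 TPM, and this median was between 80.1 and 92.6 TPM in single libraries. On the X chromosome the median was 24.8 TPM and on the other arms it was 25.3 to 25.5 TPM, never above 26.3 TPM in a library, so the ranges did not overlap. None of the 20 coding genes of the Y chromosome was detected.

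Ordered per length, the top of the transcriptome was held by structural RNAs, mitochondrial transcripts and a few eye and secreted-peptide genes. The first was snRNA:7SKa (chromosome 3R, 7474553 to 7474996), the RNA that holds a transcription elongation factor inactive, with 27242, 29802, 29806, 28172 and 28774 TPM in libraries 1 to 5. It lay above mt:lrRNA, the large mitochondrial ribosomal RNA, in 5 of 5 libraries. mt:lrRNA in turn lay at 24192 ± 733 TPM, above mt:CoI, a subunit of cytochrome oxidase at 17826 ± 905 TPM, also in 5 of 5.

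Below these the order was less firm. 7SLRNA:CR42652 (3R, 6820131 to 6820429), the RNA of the signal recognition particle, had 18148, 11738, 23044, 19095 and 16260.4 TPM in libraries 1 to 5, a spread that placed it under mt:CoI in only 3 libraries and over mt:CoIII in 4. Nplp3, which encodes a neuropeptide-like precursor and was the highest nuclear coding gene, had 16382, 14789.9, 16277, 16423 and 11745 TPM (3L, 16318024 to 16318690). It was under mt:CoIII in 3 of 5 libraries and over lncRNA:noe in 4 of 5, with library 5 apart from the others. ninaE (3R, 19886255 to 19888206), which encodes the main rhodopsin of the outer photoreceptors, followed at 11531 ± 547 TPM and exceeded RNaseMRP:RNA, a processing RNA, in 5 of 5 libraries. RNaseMRP:RNA at 9739 ± 605 and RNaseP:RNA, which trims tRNA precursors, at 9312 ± 627 TPM were in that order in 4 of 5. CG7203 (7579 ± 1325 TPM), mt:CoII, mt:Cyt-b, Arr2 (6243 ± 359 TPM) and mt:ATPase6 completed the first 15. Next came Pdh, an eye dehydrogenase, at 5879.9 ± 299 TPM, which was under mt:ATPase6 in only 2 of 5 libraries. When the longest transcript replaced the union of exons as the length, all of these 15 genes were again the first 15.

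**Figure D1:**
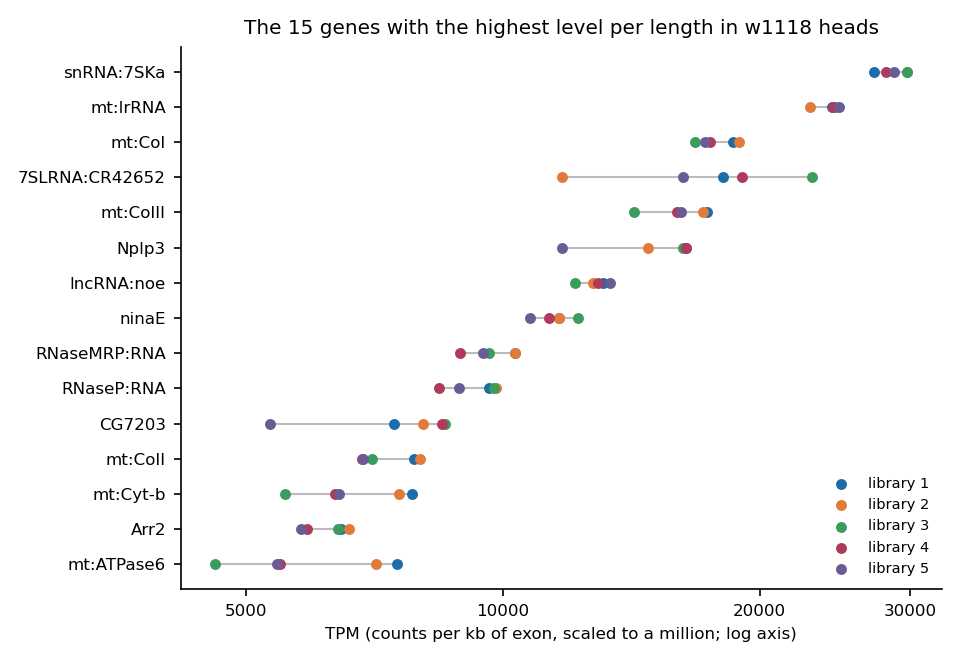
TPM (log axis) of the 15 genes with the highest level per length, with 1 point per library and a grey line from the lowest to the highest. snRNA:7SKa lay above mt:lrRNA in 5 of 5 libraries, whereas 7SLRNA:CR42652 and Nplp3 each spanned the levels of several neighbours.

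Photoreceptor and phototransduction genes took 3.93% of the counts, as much as muscle genes did (3.89% ± 0.416) and more than any other list of nuclear genes. All 38 listed members were detected, and together they had 39755, 40682, 40299.8, 37651 and 37871 CPM in libraries 1 to 5, a ratio of 1.08 between the highest and the lowest. Their median was 195 TPM. ninaE alone was 22.6% of the sum, with 9064, 9346, 9641, 8426 and 7932 CPM. Arr2, the main arrestin that ends rhodopsin signalling, had 4896, 5167, 4921, 4277 and 4175 CPM. The other arrestin gene, Arr1, had 2167 ± 96.01 TPM against 6243 ± 359 TPM for Arr2. ninaC, a myosin with a kinase domain, had 4083 ± 94.8 CPM, and trp, the main light-gated channel, had 1274 ± 16.2 TPM against 805 ± 72.5 TPM for its relative trpl.

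The minor rhodopsins of the inner photoreceptors were ordered per length as Rh3 (855 ± 49.9 TPM), Rh4 (503 ± 22.2 TPM), Rh6 (389 ± 17.8 TPM) and Rh5 (264 ± 23.9 TPM). Each lay far under ninaE. Rh4 was among the steadiest genes of the table, with 327, 325, 329, 328 and 333 CPM in libraries 1 to 5. Among all 8190 genes with a mean normalized count of at least 100, 340 (4.15%) had a highest library at least 2 times the lowest, and are called variable here. Of the 37 members of the photoreceptor list in this set none was variable, a number close to that share. Their median coefficient of variation without its counting part was 4.94%, against 6.34% over all 8190 genes.

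Lens and eye pigment genes summed to 4639 ± 118 CPM, of which Pu, the first enzyme of pteridine pigment synthesis, had 1494 ± 223 CPM. retinin, a protein of the corneal lens, had 1539, 1687, 1744, 1317 and 1117 CPM, and Cpr72Ec, a cuticle protein of the lens, 332, 366, 378, 313 and 245 CPM. se, an enzyme of the red pigment, had 273, 224, 192, 256 and 348 CPM. retinin and Cpr72Ec were highest in library 3 and lowest in library 5, whereas Pu and se were highest in library 5 and lowest in library 3. Of the brown pigment pathway, v, its first enzyme, had 17.2, 33.4, 26.4, 13.5 and 14.8 CPM, which made it the only variable member of the list, and cn, a later enzyme, was at 0.439 to 0.623 CPM.

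Neuronal genes had a narrow range as a sum. The 23 members of the pan-neuronal list that the table held summed to 16055, 15972, 15794, 15902 and 16377 CPM in libraries 1 to 5, a ratio of 1.04. None of them was variable, where 4.15% of all tested genes were, and their median coefficient of variation of 5.38% was near the 6.34% of all tested genes. The highest by CPM were cpx, which encodes the synaptic vesicle clamp complexin, at 2433 ± 74.4, nrv3, a neuronal sodium pump subunit, at 2189 ± 125, futsch, a microtubule protein of axons, at 1570.5 ± 113, and unc-13, a vesicle priming factor, at 1476 ± 27.3. Per length the order differed: nrv3 had 947 ± 51.7 TPM, Snap25, a membrane fusion protein, 478 ± 25.5 TPM and cpx 440.3 ± 17.2 TPM, against 135 ± 2.699 TPM for unc-13.

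Of the neurotransmitter genes, Gad1 (GABA synthesis) had 466 ± 62.6 TPM, ple (tyrosine hydroxylase, the first step of dopamine synthesis) 337 ± 159 TPM, VGlut (vesicular glutamate transport) 182 ± 11.2 TPM and Ace (acetylcholine breakdown) 107 ± 4.62 TPM. Only ple varied by over 2-fold, and it also serves cuticle tanning, as described below. Of 34 neuropeptide genes counted, 30 were detected. Nplp3 held 83.3% of their summed CPM, with 4315, 4019.9, 4338, 4136 and 2935 CPM in libraries 1 to 5. sNPF, Nplp1 and ITP, the next by CPM, had 90.8 ± 4.002, 88.3 ± 9.07 and 81.6 ± 3.01 CPM. None of the 23 neuropeptide genes with enough counts was variable, where 4.15% of all tested genes were.

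The genes at the centre of the study were all detected and stayed far within 2-fold. lncRNA:mimi (FBgn0051451, chromosome 3R, 23983503 to 23985065, plus strand), a long noncoding RNA that the study follows, had 1001, 974, 933, 902 and 893 CPM in libraries 1 to 5 and ranked 117 by CPM and 90 by TPM. Its annotated interval contains that of the microRNA gene mir-9381 on the same strand. Rbp9 had 496, 490.3, 503, 471 and 429 CPM, fne 208, 189, 205, 183 and 177 CPM, and elav, the third and mainly nuclear member of their family, 168, 164, 174, 176 and 174 CPM. Per length, Rbp9 stood at 122 ± 4.82 TPM, fne at 41.5 ± 2.24 TPM, stau, which encodes Staufen, at 39.7 ± 5.33 TPM and elav at 32.99 ± 2.05 TPM, while lncRNA:mimi stood at 1242 ± 38.6 TPM. Their highest library was 1.07 to 1.29 times their lowest. Among the other RNA-binding proteins, mub, Syp and pum had 819.6 ± 23.9, 437 ± 30.2 and 319 ± 20.8 CPM.

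Glial genes summed to 6356 ± 388 CPM. Gs2, the glutamine synthetase that recycles glutamate, had 1791 ± 159 TPM, nrv2, a sodium pump subunit, 586 ± 44.9 TPM, Eaat1, a glutamate transporter, 547 ± 43.5 TPM, and repo, the glial identity factor, 51.04 ± 3.57 TPM. Of the 17 members 1 was variable, where 4.15% of all tested genes were. It was e (ebony), which joins amines to beta-alanine in glia and in tanning cuticle, with 409, 363, 272, 467 and 749 CPM. Of the other histamine genes of the eye, t (tan), which reverses the ebony reaction, had 333, 344, 338, 303 and 281 CPM and Hdc, which makes histamine, 61.6 ± 2.35 CPM.

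Fat body genes were abundant and differed between libraries. In bulk heads, fewer cells of a type and less RNA per cell cannot be told apart, here or for any other tissue. The adult fat body list summed to 10357, 15615, 14730.1, 9147 and 8390.0 CPM in libraries 1 to 5, so libraries 2 and 3 lay above the other 3. Of its 24 tested members 17 were highest in library 2 or 3 and 7 in library 4 or 5. Over all tested genes library 2 was the highest for 21.7% and library 3 for 22.7%. apolpp, the precursor of the lipid carrier lipophorin and the gene that ranked 9 by CPM, had 4395, 8365, 7484, 3344 and 2628 CPM. It alone held 45.0% of the summed CPM of the list. Glyp, glycogen phosphorylase, had 1563, 2018, 2052, 1550.0 and 1578 CPM, ACC, which starts fatty acid synthesis, 794, 1064, 1142, 787 and 757 CPM, and Desat1, a fatty acid desaturase, 629, 936, 838, 493 and 438 CPM. In these 4 genes libraries 2 and 3 were the highest of the 5, and apolpp and Desat1 were among the 6 of 24 tested members that were variable (25.0%, against 4.15% of all tested genes). The lipid droplet gene Lsd-2 did not share this, with 248, 234, 247, 243 and 252 CPM. Members of this list were chosen with earlier results of these data known, so the 25.0% only describes the list.

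Cuticle protein genes took 0.477% of the counts. Of 135 listed cuticle protein genes 55 were detected, with a sum of 4766 ± 385 CPM and a median of 30.6 TPM over those detected. The highest were Vajk2 (717, 705, 861, 922 and 594 CPM), Vajk3 (512, 494, 686, 742 and 452 CPM) and Cpr100A (519, 384, 364, 538 and 638 CPM). Vajk2 and Vajk3 were highest in library 4 and Cpr100A in library 5, and all 3 stayed within 2-fold. Muscle genes summed to 37172, 34882, 35831, 42466 and 43987 CPM. Mhc, the myosin heavy chain, had 1938 ± 265 TPM, Mlc2, a myosin light chain, 3726 ± 600.3 TPM, Act57B, a muscle actin, 3905 ± 638 TPM, and SERCA, the calcium pump, 866 ± 99.1 TPM. bt and Msp300 were among the 20 highest genes by CPM only, and stood at 234 ± 47.4 and 100.1 ± 11.4 TPM. Both encode giant proteins.

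The machinery that every cell uses was a further large share. Of 86 cytoplasmic ribosomal protein genes 78 were detected, with 34676, 38717, 39269, 32537 and 32699.6 CPM in libraries 1 to 5 and a median of 1008 TPM. RpL3 had the most reads of them at 1091 ± 73.2, and RpL41, a very short gene, stood at 5395 ± 516 TPM. Nuclear genes of oxidative phosphorylation had a sum of 23739.8 ± 1439 CPM and a median of 429 TPM, with the most reads in the ATP synthase genes ATPsynC (2620.2 ± 158 CPM), blw (2575 ± 182 CPM) and ATPsynbeta (2489.5 ± 163 CPM). sesB, the ADP/ATP carrier, was at 3740.2 ± 97.4 CPM.

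By CPM the highest nuclear noncoding RNAs were lncRNA:noe (6913, 6946, 6478, 6513 and 6688 CPM; 3L, 17400272 to 17401348), snRNA:7SKa (6190.0 ± 396), lncRNA:CR42862 (2592 ± 325), 7SLRNA:CR42652 (2555 ± 604), lncRNA:Hsromega, a long nuclear RNA known from the heat shock response (1973 ± 105), RNaseMRP:RNA, RNaseP:RNA, lncRNA:roX1 (964 ± 68.7), lncRNA:mimi and snRNA:U11, of the minor spliceosome (274 ± 43.6). Most of their class lay far lower, as 570 of 2583 noncoding RNA genes were detected, with a median of 3.09 TPM. Of 290 nuclear tRNA genes 5 were detected. Libraries of this kind recover very short RNAs poorly, so the TPM of a short RNA is a level in these libraries rather than in the cell.

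Receptor genes of sensory neurons were at the lower end. Of 60 odorant receptor genes 36 were detected, with a summed 99.8 ± 5.84 CPM, of which the shared co-receptor Orco held 46.4%. The odorant-binding protein list was far higher, with a sum of 5252 ± 593 CPM. Among its members were Obp19d at 1694 ± 180.1, Obp44a at 1694 ± 203, Obp56e at 2996 ± 672 and Obp99c at 2143 ± 347 TPM. That list is not confined to sensory hairs, as its member Obp99a is also on the adult fat body list. Blood cell genes summed to 2268 ± 221 CPM, led by the collagen genes Col4a1 (603, 837, 856, 881 and 840.3 CPM) and vkg (704 ± 68.1 CPM), which fat body also expresses. The more specific blood cell genes Hml and NimC1 stood at 279 ± 58.7 and 44.3 ± 6.92 CPM.

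Other lists were read for what a head sample could also hold. Of 49 digestive enzyme genes 8 were detected, led by the maltases Mal-A5 (99.8 ± 1.93 CPM) and Mal-B2 (85.1 ± 15.6 CPM), and their sum was 220.5 ± 13.5 CPM. Of 21 germline and eggshell genes counted, 7 were detected, led by bru1 (132 ± 16.5 CPM), orb (55.7 ± 3.38 CPM) and ovo (39.3 ± 2.43 CPM), which are known outside the germline too, while osk and nanos reached at most 0.38998 and 0.38998 CPM. Of 22 testis and accessory gland genes 2 were detected, and Est-6, a carboxylesterase gene also expressed outside those glands, held 99.02% of their sum. Of 111 replication-dependent histone genes 1 was detected, His2B:CG33868 at 7.93 ± 0.963 CPM. The copies are near-identical, and 109 of the 111 were listed at 0 in all libraries.

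Detoxification and stress genes were moderately abundant. Of 80 cytochrome P450 genes 67 were detected, with a sum of 3478 ± 241 CPM and Cyp313a1 (619 ± 79.1 TPM), Cyp6d5 (424 ± 30.2 TPM), Cyp28d1 (301 ± 20.4 TPM) and Cyp6g1 (165 ± 35.4 TPM) as the first by CPM. The glutathione and glucuronosyl transferases summed to 2569 ± 104 CPM, with GstE12 at 474 ± 36.6 and GstD1 at 656 ± 47.0004 TPM. Heat shock proteins summed to 4774, 4701, 5077, 4675 and 4655 CPM in libraries 1 to 5. The constitutive chaperones Hsc70-4 (1548 ± 62.4 CPM) and Hsp83 (1042 ± 96.8 CPM) led them, and the inducible genes are described further on. The activity-regulated genes kay (123 ± 12.2 CPM), Jra (39.3 ± 1.98 CPM), sr (24.2 ± 1.86 CPM) and Hr38 (13.9 ± 1.26 CPM) stayed within 2-fold. Of 120 ionotropic and gustatory receptor genes 34 were detected, with Ir25a, a shared co-receptor, at 11.9 ± 1.02 CPM. Of the genes of hearing organ and cilia, Rfx, btv and nompC had 32.5 ± 3.497, 18.04 ± 1.04 and 6.21 ± 0.407 CPM.

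**Figure D2:**
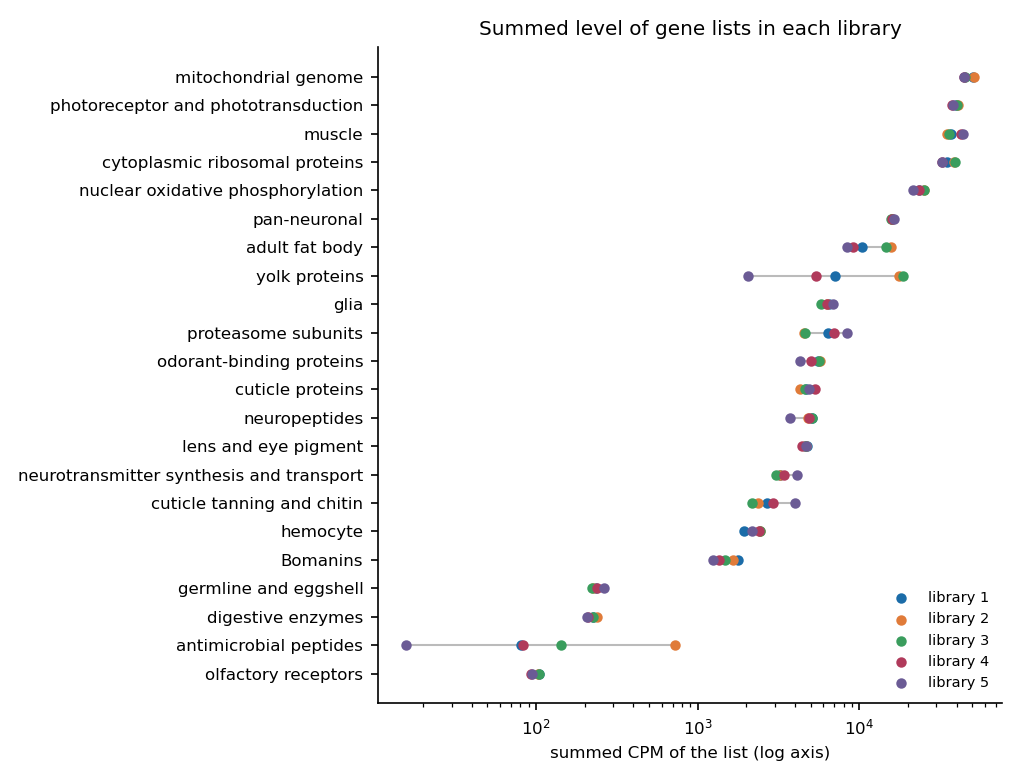
Summed CPM (log axis) of 22 gene lists, with 1 point per library and a grey line from the lowest to the highest. Photoreceptor and pan-neuronal lists lay within a ratio of 1.08 between libraries, whereas yolk protein genes spanned a ratio of 9.11 and antimicrobial peptide genes a ratio of 46.05.

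The spread between the 5 libraries was then described for the 8190 genes with a mean normalized count of at least 100. It is given as the coefficient of variation of the CPM after the part due to counting was removed. The median was 6.34%, with quartiles at 3.20 and 11.1%, and 1024 genes had no spread beyond counting. The 340 variable genes together held 4.86% of the counts, 47 spanned at least 5-fold and 24 at least 10-fold. The share of variable genes was not confined to low counts: it was 4.42% at a mean count from 100 to 300 and 6.27% (16 of 255) among the genes with the highest counts. Without library 5 the count of variable genes was 150, and the other libraries moved it less when left out.

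**Figure D3:**
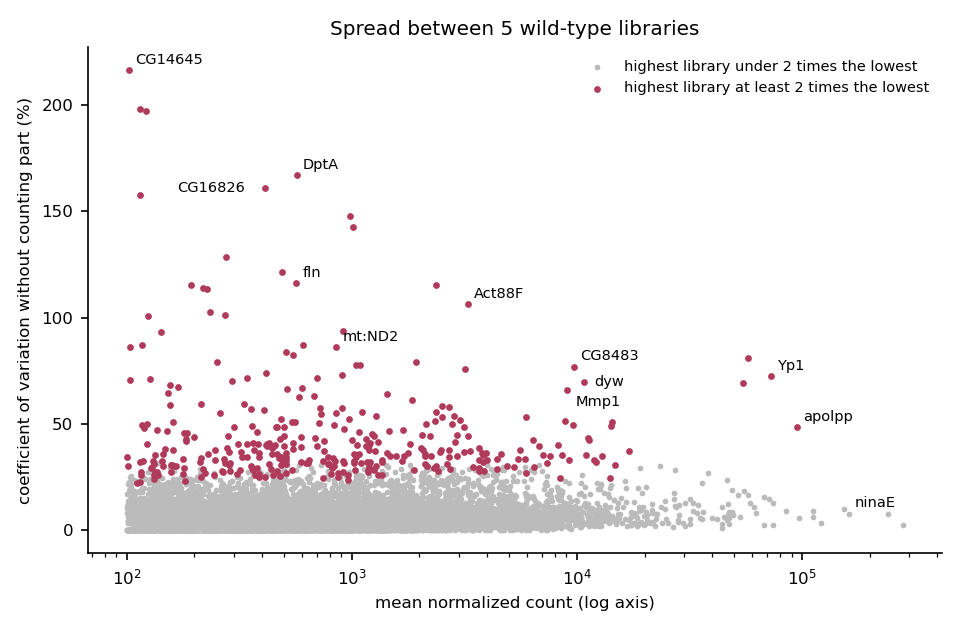
Coefficient of variation without its counting part (%) against mean normalized count (log axis) for 8190 genes, each point a gene, with the 340 variable genes in red. CG14645 had the widest spread at 216%, and the abundant genes Yp1 and apolpp lay at 72.4% and 48.6%, against 7.83% for ninaE.

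Much of the variation followed a common contrast among the libraries. Library 5 was the highest library for 167 of the 340 variable genes and the lowest for 132, and libraries 2 and 3 lay together on the opposite side. In 138 variable genes libraries 2 and 3 were both above libraries 4 and 5, and in 167 both below, together 305 of the 340. Over all 8190 genes the numbers were 2738 and 2328. Library 1 was between the extremes for 312 of the 340. It was the highest for 3.53% of the variable genes and the lowest for 4.71%. Over all tested genes library 1 was the highest for 13.9% and the lowest for 13.9%. The first component of the log2 CPM of all 8190 genes held 66.5% of their variance, with scores of 0.67 for library 5, 0.29 for library 4, 0.01 for library 1, -0.46 for library 2 and -0.50 for library 3. The chi-square per degree of freedom between pairs of libraries ran from 11.1 for libraries 2 and 3 to 92.1 for libraries 2 and 5, so no pair looked like a library deposited again. The labels gave no batch or date for these libraries, and the cause of the contrast was not tested. With libraries 3 and 5 both left out, 103 genes were variable.

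The genes that were high in library 5 and low in libraries 2 and 3 included cuticle tanning, cuticle protein, proteasome and muscle genes. ple had 489, 482, 403, 632 and 1072 CPM in libraries 1 to 5 and e 409, 363, 272, 467 and 749 CPM. Ddc, dopa decarboxylase, was also highest in library 5 but lowest in library 1, with 157, 180.5, 160.0, 194 and 254 CPM. Over the tanning and chitin list 10 of 11 tested members were highest in library 5, where library 5 was highest for 29.8% of all tested genes. The exception was t, quoted above, which was highest in library 2 and lowest in library 5. knk, which organises chitin, had 47.5, 32.8, 29.7, 49.2 and 68.8 CPM and Cht5, a chitinase of the moult, 358, 219, 135, 335 and 596 CPM. Of 37 tested cuticle protein genes 16 were highest in library 5 and 14 were lowest in it, so this list had no common profile. Cpr49Ac (16.3, 15.7, 11.8, 42.4 and 80.9 CPM), Cpr50Cb (43.8, 32.4, 23.1, 53.2 and 97.2 CPM) and resilin, the rubber-like cuticle protein (23.6, 13.4, 8.15, 20.5 and 33.8 CPM), were its widest members on the side of library 5.

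Other genes had the same extremes. dyw had 575, 347, 185, 581 and 1266 CPM in libraries 1 to 5, a ratio of 6.83. Mmp1, a matrix metalloproteinase that remodels tissue, had 380.3, 248, 226, 621 and 1017 CPM, and Dronc, the initiator caspase, 79.5, 61.4, 45.6, 120.5 and 202 CPM. CG8483 had 387, 236, 169, 712 and 1169 CPM and Drat 754, 493, 384, 901 and 1398 CPM. In each of these 5 genes libraries 4 and 5 lay above libraries 2 and 3. Lower genes with a wide spread in the same direction were CG30281 (5.51, 3.59, 1.39, 8.499 and 19.9 CPM), CG30280 (2.58, 3.07, 2.02, 6.97 and 13.8 CPM) and Ilp8, an insulin-like peptide known from growing larval discs (3.705, 2.59, 2.59, 7.398 and 15.9 CPM).

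Proteasome subunits had a common profile. This list was added after values had been seen, so its count only describes the pattern. All 32 members with enough counts were highest in library 5, and all were lowest in library 2 (17) or library 3 (15). Their sum was 6448, 4545, 4594, 7026 and 8367 CPM in libraries 1 to 5. The median deviation from the gene mean was 0.46 on the log2 scale in library 5 and 0.20 in library 4, against -0.40 in library 2 and -0.39 in library 3. Rpn6, a subunit of the regulatory cap, had 394, 269.9, 284, 454 and 521 CPM, Rpt4, a cap ATPase, 217, 144, 128, 231 and 291 CPM, and Prosalpha4, of the core, 142, 94.7, 91.5, 137 and 188 CPM. Ubi-p5E, a polyubiquitin gene, had 218, 160.1, 117, 192 and 325 CPM. Of the 32 members 7 were variable, where 4.15% of all tested genes were.

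Ribosomal protein genes took the opposite side with small amplitude. All 78 tested members were highest in library 2 (33) or library 3 (45). None was variable, where 4.15% of all tested genes were. Library 2 was the highest for 21.7% and library 3 for 22.7% of all tested genes. Their median deviation was 0.13 and 0.14 on the log2 scale in libraries 2 and 3, and -0.13 in each of libraries 4 and 5. With the total count alone as the scale, 77 of the 78 were highest there. Nuclear genes of oxidative phosphorylation were lowest in library 5 in 62 of 69 cases, where library 5 was the lowest for 32.5% of all tested genes. Genes of protein entry into the endoplasmic reticulum, again a list added after values had been seen, were lowest in library 5 in 9 of 9, for example Sec61alpha with 184, 242, 256, 177 and 141 CPM and Sec61beta with 38.9, 55.7, 64.6, 46.9 and 31.9 CPM.

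**Figure D4:**
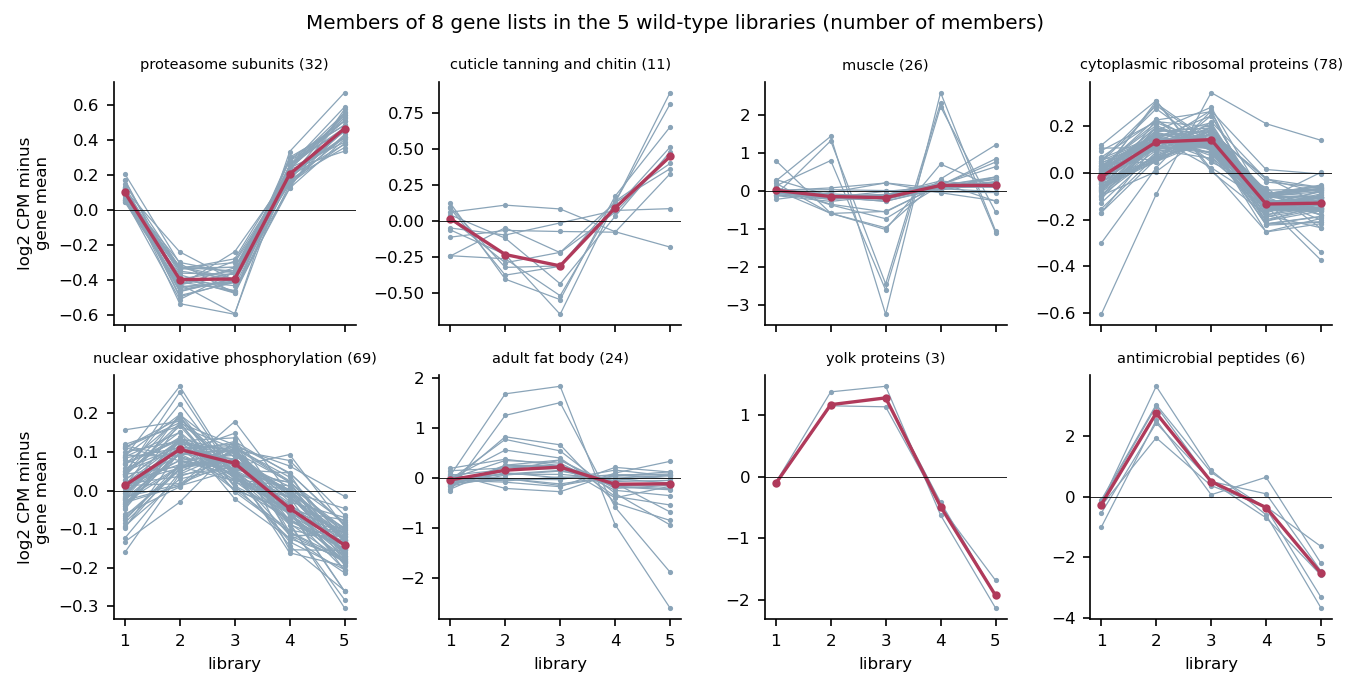
Log2 CPM minus the gene's mean (y axis) in libraries 1 to 5 (x axis) for the tested members of 8 gene lists, with their number in each title. Grey lines join the values of a gene and red lines the medians, and the libraries have no order in time. All 32 proteasome subunits were highest in library 5, and all 78 ribosomal protein genes were highest in library 2 or 3; the vertical scales differ between panels.

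The most abundant variable genes on the side of libraries 2 and 3 were apolpp and the yolk protein genes, which female fat body expresses after eclosion. Yp1 had 2809, 6803, 7342, 2276 and 799 CPM in libraries 1 to 5, Yp2 2173, 5231, 5173, 1687 and 737 CPM and Yp3 2066, 5709, 6078, 1432 and 504 CPM. Libraries 2 and 3 were above library 1, library 1 above library 4, and library 5 lowest for all 3 genes. Their sum was 7048, 17742, 18593, 5395 and 2041 CPM, a ratio of 9.11.

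Of the other sex-related transcripts, the female-enriched gene fit, given below, had a larger ratio than the yolk genes, and the sex determination and dosage compensation genes had small ones. lncRNA:roX1, a noncoding RNA of the male X chromosome, had 958, 1048, 1010.5, 931 and 872 CPM in libraries 1 to 5, and lncRNA:roX2, its partner, 220.2, 221, 242, 211 and 198 CPM. They were highest in libraries 2 and 3 as well, with ratios of 1.202 and 1.22. Sxl, the master gene of female development, had 276, 260.1, 259, 272 and 264 CPM and dsx 57.7, 64.7, 70.7, 62.9 and 57.9 CPM. The ratios of Sxl and dsx were 1.06 and 1.22. Counts are per gene, so transcript forms of either gene were not told apart. The sex ratio of the pooled heads was not analysed here.

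Several fat body and secreted products also had high values in libraries 2 and 3. fit, which encodes a secreted peptide, had 30.4, 95.3, 106, 15.2 and 4.44 CPM in libraries 1 to 5 and Obp99a 17.9, 51.8, 61.9, 14.2 and 5.48 CPM, ratios of 23.9 and 11.3. Lsp2, a larval serum protein, had 316, 797, 711, 377 and 233 CPM, whereas Fbp1, another larval fat body protein, had 96.7, 161, 108, 154 and 166 CPM and did not separate the same libraries. Est-6, a secreted esterase, had 345, 528, 469, 253 and 165 CPM, and Tsf1, the iron carrier transferrin, 692, 977, 1004, 967 and 429 CPM. For Tsf1 library 4 lay with libraries 2 and 3, unlike the others. Cyp4ac1, a cytochrome P450 gene, had 21.3, 45.2, 37.8, 16.1 and 13.3 CPM.

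**Figure D5:**
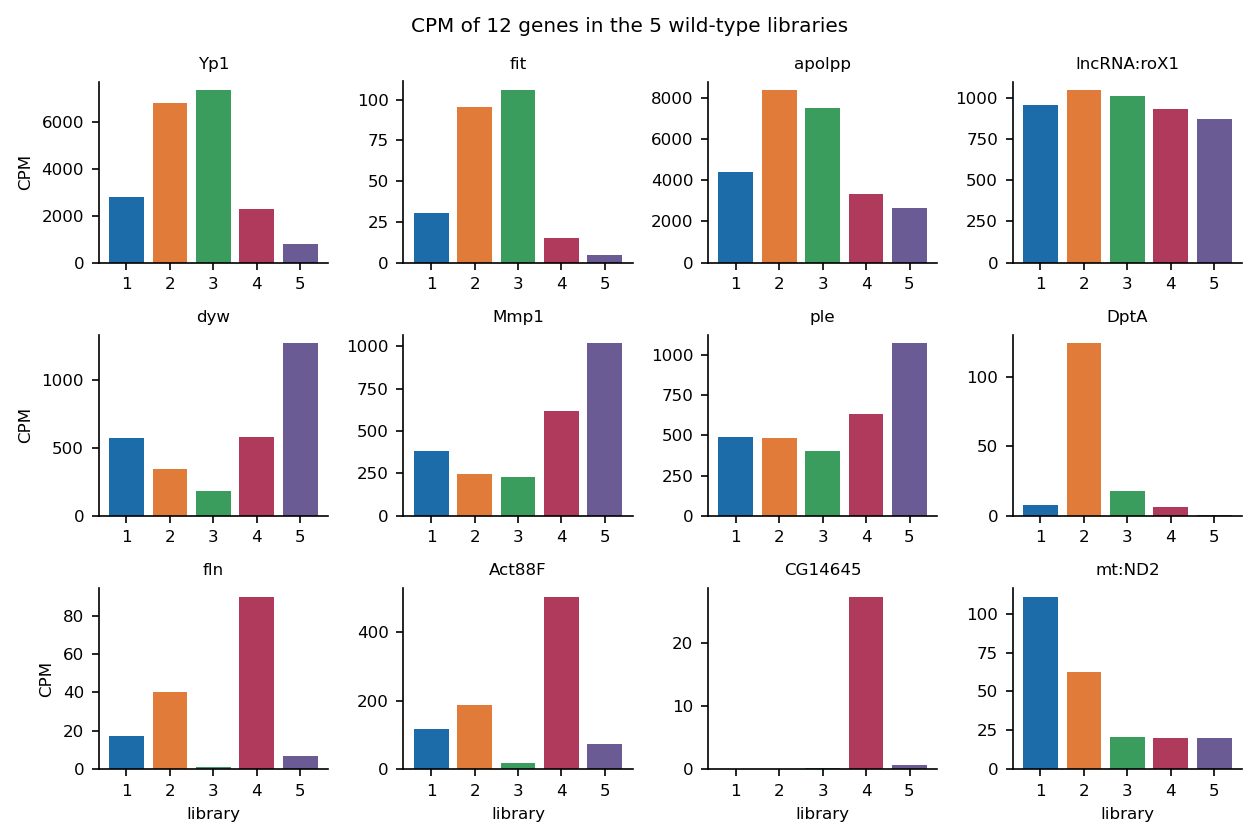
CPM (y axis, from 0) of 12 genes in libraries 1 to 5 (x axis), 1 bar per library. Yp1, fit and apolpp were highest in libraries 2 and 3 while lncRNA:roX1 was nearly level, dyw, Mmp1 and ple were highest in library 5, DptA in library 2, fln, Act88F and CG14645 in library 4, and mt:ND2 in library 1.

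Antimicrobial peptide genes had the widest range of summed CPM of the 38 lists. These peptides are secreted by fat body and other tissues when microbes or wounds activate the Imd and Toll pathways. DptA, a diptericin, had 8.14, 124, 17.8, 6.11 and 0.288 CPM in libraries 1 to 5, DptB 21.7, 195, 41.2, 17.9 and 1.903 CPM and AttC, an attacin, 21.5, 196, 34.6, 14.9 and 3.63 CPM. Library 2 was the highest and library 5 the lowest for all 6 tested members, the others being Mtk (10.3, 83.998, 21.7, 16.3 and 2.36 CPM), Dro (3.802, 49.2, 8.53, 12.96 and 1.38 CPM) and AttB (7.17, 35.8, 11.7, 7.03 and 2.54 CPM). Mtkl (5.65, 18.9, 4.74, 3.12 and 1.79 CPM), which is not on the list, had the same extremes. The list summed to 80.3, 725, 143, 83.3 and 15.7 CPM. Of its 13 members counted, 10 were detected and 6 had enough counts to be tested. Library 2 highest with library 5 lowest was found in 1022 of all 8190 tested genes and in 76 of the 340 variable genes.

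Some other immune genes shared these extremes and some did not. The Bomanins, short peptides of the Toll pathway, summed to 1768, 1664, 1484, 1359.5 and 1247 CPM with library 1 highest. Of 10 tested Bomanins 4 were variable, where 4.15% of all tested genes were. These were BomS1, BomS4 and BomS5, with library 2 highest and library 5 lowest, and BomBc3, with library 3 highest and library 5 lowest. BomS3, which had the most reads of them, was not variable, with 503, 426, 376, 367 and 369 CPM, and per length BomS6 was higher (2890.0 ± 354 TPM, against 1095 ± 140.5 for BomS3). PGRP-SB1, a peptidoglycan-binding protein, had 32.2, 87.2, 30.8, 20.9 and 21.9 CPM and Listericin 28.03, 51.5, 38.3, 17.4 and 14.4 CPM, both highest in library 2. TotA, a stress peptide, had 27.8, 40.4, 28.3, 19.5 and 16.6 CPM. Listericin and TotA had the libraries in the same order as DptA, DptB, AttC and AttB did. That order was not particular to immune genes. It was found in 15.9% of all variable genes, apolpp among them, and in 5.84% of all tested genes.

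Flight muscle genes followed neither side of the main contrast. Act88F, the actin of the indirect flight muscles of the thorax, had 118, 188, 17.2, 504 and 73.2 CPM in libraries 1 to 5. fln (flightin, of their thick filaments) had 17.5, 40.2, 1.07, 89.9 and 6.75 CPM, and TpnC4, their troponin C, 5.898, 16.7, 0.758, 33.9 and 2.71 CPM. All 3 were highest in library 4, next highest in library 2 and lowest in library 3. The general muscle genes did not do this, as Mhc had 7871, 7776, 7919.9, 9573 and 9234 CPM and Mlc2 4124, 3716, 3489, 4450.4 and 4763 CPM. Muscle genes of the main contrast were Zasp66 (623, 452, 351, 647 and 1047 CPM), Act87E (668, 493, 428, 708 and 979.5 CPM) and TpnC73F (28.4, 18.3, 13.96, 34.7 and 65.1 CPM), all highest in library 5 and lowest in library 3.

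A few genes were nearly private to a library. CG14645, which had the widest spread of the tested genes, had 0, 0, 0.126, 27.5 and 0.577 CPM in libraries 1 to 5. It was at least 191-fold higher in library 4 than in library 2, which was at 0 and was set to the floor of 3 counts. CG31077 had 0.975, 0.527, 0.569, 28.6 and 0.749 CPM and CG34324 0.0975, 0, 0.253, 30.4 and 2.88 CPM, again with library 4 far above the others. CG15617 was highest in library 4 too, but was also present in library 1 (16.5, 2.97, 0.126, 35.2 and 7.49 CPM). CG16826 had 0.292, 27.9, 84.2, 0 and 0.634 CPM, whe 0.0487, 8.34, 22.9, 0.0611 and 0.115 CPM and lcs 3.02, 15.05, 30.4, 2.996 and 1.79 CPM, which were high in library 3 and at lower levels in library 2. Outside library 4, CG14645 had at most 10 counts in a library, CG31077 at most 20 and CG34324 at most 50. They reached the mean count needed for the test through library 4 alone, and whe through libraries 2 and 3. A gene this low elsewhere is tested only if it has such a peak, so its wide spread follows in part from that limit.

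A pair of IDs without a symbol and a pseudogene of ribosomal RNA were highest in library 3. The ID FBgn0085759, which has no symbol in the annotation used, had 3.56, 40.7, 382, 81.8 and 142 CPM in libraries 1 to 5, and FBgn0085799 had 1.17, 6.18, 39.99, 9.97 and 17.7 CPM. Their 5 libraries took the same order. 28SrRNA-Psi:CR41609, a pseudogene of ribosomal RNA on the X chromosome, had 117, 98.2, 218, 148 and 99.2 CPM, and all pseudogenes together took 0.0878, 0.0877, 0.146, 0.114 and 0.0882% of the counts in libraries 1 to 5. Copies of ribosomal RNA share sequence, and how reads with several matches were counted was not stated, so these levels are uncertain for any single copy. The inducible heat shock genes Hsp70Ba (10.8, 14.6, 16.9, 4.89 and 7.84 CPM) and Hsp68 (52.5, 64.1, 80.4, 38.3 and 47.97 CPM) were also highest in library 3 and lowest in library 4, and the copies of Hsp70 are near-identical as well.

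Several mitochondrial messenger RNAs separated libraries 1 and 2 from the other 3. mt:ND2, a subunit of complex I, had 111, 62.4, 20.4, 20.1 and 19.9 CPM in libraries 1 to 5, mt:ATPase6 2483, 2424, 1539, 1732 and 1705 CPM, mt:Cyt-b 4358, 4338, 3127, 3385 and 3394 CPM and mt:ND5 1156, 1102, 706, 784 and 762 CPM. In these 4 genes, chosen from the 12 tested mitochondrial genes, libraries 1 and 2 lay above libraries 3, 4 and 5. Of the 12, library 1 was highest for 6 and library 2 for 5. The shares over all tested genes were 13.9% for library 1 and 21.7% for library 2. How many of all tested genes separated libraries 1 and 2 from the others was not counted. mt:lrRNA had 15782, 15331, 16058, 15124 and 15253 CPM, without that separation. mt:ND2 was the only one of 12 tested mitochondrial genes to pass 2-fold, where 4.15% of all tested genes were variable. mt:ND4L, under the count needed for the test, had 8.34, 1.44, 0.505, 0.489 and 0.288 CPM.

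At the other end of the scale were genes that barely moved. Among genes with a mean count of at least 1000, 10 of those with the smallest spread were ATP8A (275, 279, 279, 278 and 277 CPM), vap (92.6, 91.04, 92.1, 91.8 and 92.8 CPM), CG42268, EcR, which encodes the ecdysone receptor (138, 137, 137, 136 and 139.6 CPM), Unr, Vha68-2, a proton pump subunit, Pp2A-29B, Tnpo, nwk and Rh4. All 10 belonged to the 1024 genes with no spread beyond counting, and within that set the genes are not ranked. Their highest library was 1.01 to 1.03 times the lowest. As these 10 were picked for their small spread, genes often used as references are set against the median ratio over all tested genes, 1.21. RpL32 had 400.3, 434, 439, 356 and 356 CPM (a ratio of 1.23), Act5C 1154, 1076, 1039, 1280.0 and 1394 CPM (1.34) and Gapdh1 988, 1208, 1138, 1027 and 939 CPM (1.29), while alphaTub84B had 1050.3, 1107, 1112, 1133 and 1092 CPM (1.08). RpL32 and Gapdh1 were highest in libraries 2 and 3, and Act5C was highest in library 5. Among clock genes, to was variable (29.2, 33.2, 30.3, 23.7 and 15.7 CPM), whereas tim (185, 186, 196, 242 and 221 CPM) and per (30.3, 35.6, 35.9, 41.9 and 44.4 CPM) had ratios of 1.303 and 1.47.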

How the data were processed

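RNA of w1118 heads was sequenced from stranded, ribosomal RNA-depleted, paired-end libraries. The counts deposited by the authors are raw whole reads per gene, made per the labels and methods with snakePipes, STAR and Subread featureCounts on dm6 with an earlier Ensembl annotation than the one used here. Their versions, the strand setting and the treatment of reads with several matches were not given in the sources used here, so overlapping, antisense and near-identical genes are uncertain. The 15 columns of mutant libraries were not used, nor was a second table, which holds the authors' DESeq2 comparison of the double mutant with wild type.

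CPM is the count divided by the library total times its TMM factor (edgeR 4.0.16), and other scalings moved the median gene by at most 0.0207 on the log2 scale. TPM used the union of exons of Ensembl release 115, which gave symbols to 17252 of 17558 IDs. The remaining 306 IDs held 3.71% of the counts and have no TPM. TPM has its own factor in each library, so a gene level in CPM can spread more in TPM. A gene was detected with more than 3 counts in all 5 libraries. The coefficient of variation had its counting part removed. The term variable means a mean normalized count of at least 100 and a highest library at least 2 times the lowest, with values under 3 counts set to 3. Profiles used log2 CPM with a pseudocount of 0.5. Steps were tested on simulated data (Python 3.11.15, numpy 2.4.6, pandas 2.3.3).

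The named genes are the 20 highest by CPM, the 15 highest per length, the 10 highest noncoding RNAs, the 4 highest by CPM of a list (not all are described), the 25 with the widest spread, lncRNA:mimi, fne, Rbp9, elav and stau. Other genes with values were chosen after their values were seen. The members and the 38 lists were chosen with earlier results of these data known, 2 lists were added after values were seen, and symbols were updated to the annotation. The labels number the 5 libraries and the methods call them independent, so the SD covers the spread between these libraries. Their totals ran from 15923472 to 21064462 counts, and the floor of 3 counts covers counting error only. Alternatives were other scalings, filters, lengths and each library left out.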

Additional observations from a re-analysis of the deposited data

Results flagged for a closer look

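Of 323 levels examined, 22 had 1 library apart from the other 4 by Dixon's criterion for 5 values (0.71), and chance alone flags about 1 in 20 groups. The levels include genes named for their wide spread or chosen after their values were seen, among them DptA, DptB, AttC, AttB, Mtk, Dro, Mtkl, CG14645, CG31077 and CG34324, so that rate does not apply to them and nothing is read from the number flagged. Library 2 was the one apart in 10 of the 22, library 1 in 4, library 3 in 2, library 4 in 3 and library 5 in 3.

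In library 2 the antimicrobial peptide list summed to 724.7 CPM, against at most 143.5 CPM in another library. The genes concerned were DptA at 124.3 CPM, DptB at 195.5 CPM, AttC at 196.2 CPM, AttB at 35.8 CPM, Mtk at 84.0 CPM, Dro at 49.2 CPM and Mtkl at 18.9 CPM. PGRP-SB1, a peptidoglycan-binding protein, was also high in library 2 at 87.2 CPM. CG16758 was at 346.005 CPM there, and its next highest library was at 208.3 CPM.

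In library 4 the genes CG14645, CG31077 and CG34324 were at 27.5, 28.6 and 30.45 CPM, and the highest of the other libraries was at 0.577, 0.975 and 2.88 CPM. In library 5 Nplp3 was low at 2935 CPM, which also set the neuropeptide list low at 3704 CPM, and fon, a gene of blood clotting, was high at 800.5 CPM.

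In library 1 the collagen gene Col4a1 was low at 603 CPM, the odour or taste receptor gene Ir47a was low at 10.04 CPM, Dgat2, of lipid synthesis, was high at 13.6 CPM, and mt:ND4L, a subunit of complex I, was high at 8.34 CPM. In library 3 the heat shock list was high at 5077 CPM, and the genes of nuclear ribosomal RNA were high at 0.000546% of the counts.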

How the results depend on the processing

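No paired analysis was possible because the libraries form 1 group. The number of variable genes depended most on the limits chosen: it was 340, 675 with a mean count of at least 20, 198 with at least 500 and 1200 with a fold of 1.5. It ran from 150 (without library 5) to 341 (without library 1) when each library was left out, and 146 of the 150 were among the 340. With libraries 3 and 5 both left out, an alternative chosen after seeing the data, it was 103. These counts change with fewer libraries or other limits by construction. With DESeq2 size factors it was 345 and with the total count 341. Over nuclear genes with a symbol only, the denominator is smaller by construction, and the share of counts was 96.6% for protein-coding genes, 2.35% for noncoding RNAs, 0.750% for small nuclear RNAs and 0.00107% for tRNA genes. The other 48 class shares, all 552 gene levels and all 266 list sums computed under alternatives moved by less than 1 SD of the libraries. Leaving out 1 of 5 libraries cannot move a mean by 1 SD of the 5. For the class shares and list sums, that part of the outcome was therefore fixed beforehand and is not read as stability. With the longest transcript as length, 91 of the first 100 genes per length were among the first 100 again. Of the 25 genes with the widest spread, 20 were also among the first 25 by the SD of log2 CPM and 21 by edgeR's gene-wise dispersion. Genes near the floor of 3 counts have ratios set by counting.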
